A study of Mus musculus with 12 samples.

Results

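The genes described here encode nuclear subunits of the mitochondrial respiratory chain and of the ATP synthase. They were chosen by name: symbols of the NADH dehydrogenase subunits (Nduf followed by a, b, c, s or v and a number), the 4 Sdh genes, and symbols that begin with Uqcr, Cox4 to Cox8 or Atp5. Of 20325 genes in the tables, 85 matched by name and 82 were kept because their mean TPM reached 1 in at least 1 of the 6 groups. TPM is a level per transcript length, scaled to the same total in every library, so it can be roughly compared between genes. The deposited TPM was not corrected for fragment size, which limits the comparison of short with long transcripts. Just inside that threshold were Cox6a2 (highest group mean 1.46 TPM), Ndufa4l2 (2.61 TPM) and Cox4i2 (3.61 TPM). Just outside it were Cox7b2 (0.415 TPM), Cox8b (0.395 TPM) and Cox8c (0.11 TPM). The 82 members were 7 core and 28 accessory subunits of complex I, 4 of complex II, 8 of complex III, 15 of complex IV and 15 of the ATP synthase. Ndufa4, which later work places in complex IV, and its paralog Ndufa4l2 were kept apart. The names also brought in 3 genes that encode no chain subunit, among them Cox4nb, which encodes part of a complex of the endoplasmic reticulum membrane. Of the 82 members, 81 passed the filter on low counts and were tested, and Cox6a2 did not. Subunits encoded by mitochondrial DNA were not analysed here.

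Complex I takes electrons from NADH and complex II takes them from succinate, and both pass them to ubiquinone. Complex III hands them on to cytochrome c, and complex IV reduces oxygen. Complexes I, III and IV pump protons across the inner membrane, and the ATP synthase lets them flow back through a rotating ring of c subunits while it makes ATP. Fibroblasts respire, while pluripotent stem cells are known for a large share of glycolysis, and the shift between these states is a known part of reprogramming.

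The study followed mouse embryonic fibroblasts (MEFs) into the early phase of reprogramming to induced pluripotent stem cells, with and without AF10 (Mllt10), a partner protein of DOT1L, the enzyme that methylates lysine 79 of histone H3. Cells of all 6 groups carried AF10 fl/fl, OSKM (the reprogramming factors) and rtTA. They had received Ad5-CMV-Empty (the groups named fl, in which AF10 was kept) or Ad5-CMV-Cre (the groups named creAF10, in which it was deleted, AF10 -/-). MEF_fl and MEF_creAF10 were fibroblasts in MEF medium. Day4_fl_DMSO, Day4_fl_SGC, Day4_creAF10_DMSO and Day4_creAF10_SGC were on day 4 of reprogramming, which had begun 2 days after the virus. All 4 received 2 µg/mL doxycycline, together with either the solvent DMSO or 5 µM SGC0946, an inhibitor of DOT1L. Day 4 cells grew on gelatin and DR4 feeder MEFs, in ESC medium to which LIF was added. Stage, medium, doxycycline and feeder cells therefore changed together and cannot be told apart, and Cre was given to no cells without floxed alleles. RNA of the feeder cells may also be in the day 4 libraries. The labels state neither ages nor whether the 2 libraries of a group came from separate embryos.

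Each group had 2 libraries of 14602536 to 22800753 expected counts. Mllt10 reads were lower in both libraries of every creAF10 group than in both of its fl counterpart (log2 fold change -0.34 ± 0.08 (SE) in MEFs and -0.44 ± 0.08 on day 4 in DMSO), so most Mllt10 reads were still there. These differences were called in the paired fit explained below (adjusted p = 0.0322 and 0.001) and not in edgeR without pairing (adjusted p = 0.704 and 0.537), and they do not measure the protein. The labels do not say what the 2 replicate numbers mark. There were 4035 to 4780 Y-linked counts in the replicate 1 libraries and 8 to 52 in the replicate 2 libraries. Male cells were thus present in replicate 1, and few or none in replicate 2. That each number stands for 1 cell source shared by the groups was assumed. Below, CPM is a count relative to the library total after TMM scaling, and a gene is called where the adjusted p of edgeR's quasi-likelihood test is under 0.05. Errors after ± are standard errors unless marked as SD. The paired fit has the replicate number as a block within each stage, and its values are given beside a gene or count of the text where it changes the call or moves the count by over 1.5 times. P-values rest on the spread between the 2 libraries of each group, estimated over all groups together. In the paired fit, the replicate difference shared within a stage is first taken out of that spread.

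Promoters of the members share short sequence words, and 4 are shown because they carry those words and belong to genes whose values are given further on. The sequences are RefSeq windows of GRCm38.p6, from 250 bases before to 50 after a gene's start, printed 5′ to 3′ on the gene's strand, with matches to the words in capitals. Atp5g2 (chr15:102670998-102671297, minus strand) and Ndufa11 (chr17:56717512-56717811, plus strand) hold the word of the factor NRF1. Sdhd (chr9:50603800-50604099, minus strand) holds those of NRF1, of ETS factors and of the estrogen-related receptors, and Ndufs4 (chr13:114388045-114388344, minus strand) that of YY1.
Atp5g2: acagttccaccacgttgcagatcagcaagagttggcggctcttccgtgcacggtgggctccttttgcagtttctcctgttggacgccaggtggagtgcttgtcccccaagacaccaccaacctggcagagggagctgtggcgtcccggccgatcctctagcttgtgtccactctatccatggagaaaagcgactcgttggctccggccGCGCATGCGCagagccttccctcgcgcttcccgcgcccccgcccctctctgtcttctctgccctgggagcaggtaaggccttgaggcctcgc
Ndufa11: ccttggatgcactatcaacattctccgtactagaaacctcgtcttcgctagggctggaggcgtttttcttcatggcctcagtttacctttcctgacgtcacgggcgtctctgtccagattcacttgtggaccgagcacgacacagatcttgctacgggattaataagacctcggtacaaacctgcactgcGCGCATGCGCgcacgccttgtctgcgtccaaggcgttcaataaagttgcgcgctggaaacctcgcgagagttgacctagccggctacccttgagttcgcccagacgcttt
Sdhd: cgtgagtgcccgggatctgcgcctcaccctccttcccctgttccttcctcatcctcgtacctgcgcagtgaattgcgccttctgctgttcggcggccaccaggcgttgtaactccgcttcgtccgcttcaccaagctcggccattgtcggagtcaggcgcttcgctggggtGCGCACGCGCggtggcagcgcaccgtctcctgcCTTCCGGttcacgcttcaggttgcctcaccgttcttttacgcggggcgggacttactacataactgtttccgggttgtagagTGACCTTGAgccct
Ndufs4: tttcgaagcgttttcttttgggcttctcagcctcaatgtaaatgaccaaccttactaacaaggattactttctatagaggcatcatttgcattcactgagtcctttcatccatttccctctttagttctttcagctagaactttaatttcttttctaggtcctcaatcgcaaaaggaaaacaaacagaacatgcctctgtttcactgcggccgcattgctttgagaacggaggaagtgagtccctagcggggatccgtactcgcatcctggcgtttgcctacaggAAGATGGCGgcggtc
The words were searched on both strands and were, for NRF1, GCGCA and GCGC with any base between them, and further CCGGAAG for ETS factors, AAGATGGCG for YY1, TCAAGGTCA for estrogen-related receptors and TATAAA for the TATA box. No word contains another, though the ETS and YY1 words can overlap by the bases AAG. Windows were found for 67 of the 82 members, with 73 windows in all.

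The NRF1 word was in 18 of the 73 member windows (24.7%) and in 4.6% of all 32851 windows of that length. The ETS word was in 21.9% of member windows and in 8.86% of all windows, and the YY1 word in 12.3% and 1.4%. The word of the estrogen-related receptors was in 2 members, Atp5g3 and Sdhd. The TATA word was in 8.22% of member windows against 13.6% of all. These matches describe letters and are not evidence of binding. Of the 17 tested members with the NRF1 word, 6 rose between MEFs and day 4 in fl cells, against 24 of the 50 with a window and no such word, and the median log2 fold changes were 0.22 and 0.29. Atp5g2 and Ndufa11, which both hold the NRF1 word, are among the members that rose and fell.

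In MEF_fl the members were abundant transcripts. The ATP synthase genes ranged from 185 TPM (Atp5g1, a c subunit gene) to 889 TPM (Atp5b, the catalytic beta subunit), with a median of 404 TPM. Complex IV had a median of 299 TPM and its highest member was Cox4i1 at 729 TPM. Complex III had a median of 215 TPM, complex II of 184 TPM, the complex I accessory subunits of 162 TPM and the complex I core subunits of 92.5 TPM. The complex I core genes, which carry the flavin and most iron-sulfur centres, thus had the lowest median of the complexes. Cox6a2, a tissue isoform of complex IV, was the lowest member in fl MEFs, and Ndufa4l2 was at 2.24 TPM.

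Taken as a sum, the 82 members held more of the library on day 4. They made up 0.633% and 0.695% of the expected counts in the MEF_fl libraries and 0.657% and 0.708% in MEF_creAF10. On day 4 their share was 0.953% and 0.909% in Day4_fl_DMSO, 0.986% and 0.96% in Day4_fl_SGC, 1.02% and 0.985% in Day4_creAF10_DMSO, and 1.02% and 0.937% in Day4_creAF10_SGC. The 8 day 4 libraries lay above the 4 MEF libraries with no overlap. Among the day 4 groups, both Day4_fl_DMSO libraries lay below both of Day4_fl_SGC and of Day4_creAF10_DMSO and overlapped those of Day4_creAF10_SGC, and the other 3 groups overlapped each other. As a share of TPM the rise was smaller, from 1.87% and 2.07% in MEF_fl to 2.29% and 2.26% in Day4_fl_DMSO. The same shift in share moved with a loss of matrix transcripts: 8 fibroblast markers, with Col1a1, Col1a2, Col3a1 and Fn1 the most abundant, summed to 45271 to 63261 CPM in MEF_fl and 12969 to 13251 CPM in Day4_fl_DMSO. Their part in the members' share was not tested.

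**Figure D1:**
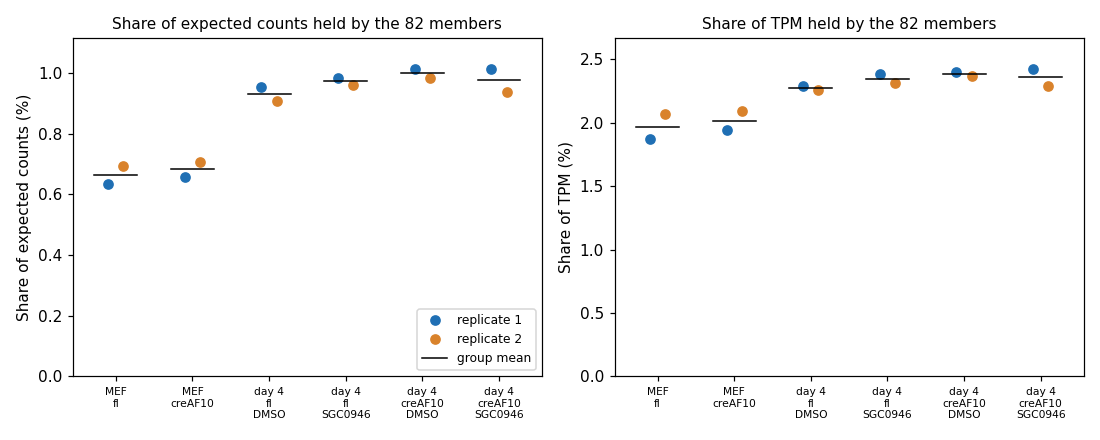
Share of each library's expected counts (left, %) and of its TPM (right, %) held by the 82 members; points are libraries coloured by replicate number and horizontal lines are group means. The counts rise from 0.633% to 0.708% in MEFs to 0.909% to 1.02% on day 4, and the rise in TPM is smaller.

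Between MEFs and day 4 in fl cells, many subunit genes of complexes I, III and IV and of the ATP synthase rose, mostly by modest amounts, and few fell. Of the 81 members tested, 35 rose (43.2%, against 25.7% of all 13936 genes tested) and 4 fell (4.94%, against 26.3%). Their median log2 fold change was 0.26, with 66 of 81 positive, and that of all genes was 0.01. Both day 4 libraries were above both MEF libraries for 53 members (65.4%) and below for 10 (12.3%), where 39% and 37.9% of all genes were so. Leaving out Day4_fl_DMSO replicate 1 left 21 members called higher, and 2 were called lower without MEF_fl replicate 1 and 1 without Day4_fl_DMSO replicate 2. The paired fit called 45 higher and 6 lower, against 33.9% and 34.3% of all genes. Library totals without scaling factors shifted the median of all genes to 0.18 and the TPM scale to -0.06. The members' median stood 0.24 above it. Such scalings move all genes of a library alike, so this distance could not change and is no test of the result.

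All 7 complex I core genes had positive changes and 5 rose. Ndufv2, an iron-sulfur subunit of the NADH module, was at 60.1 and 60.2 CPM in MEF_fl and at 87.4 and 80.2 CPM in Day4_fl_DMSO. Ndufv2 rose by 0.48 ± 0.09 (adjusted p = 0.00161), and both day 4 libraries were above both MEF libraries. Among the others, Ndufs7 rose by 0.46 ± 0.10, Ndufs3 by 0.39 ± 0.11 and Ndufs1 by 0.27 ± 0.08. Ndufv1, which binds the flavin, had 0.31 ± 0.12 (adjusted p = 0.0506, and 0.00626 in the paired fit), and Ndufs8 0.17 ± 0.11.

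Of the 28 complex I accessory subunits, 10 rose and 3 fell, with a median of 0.18. Ndufb6, a subunit of the membrane arm, was at 37.4 and 32.8 CPM in MEF_fl and at 64.7 and 60.5 CPM in Day4_fl_DMSO, and rose by 0.83 ± 0.09 (adjusted p = 6.13e-05). Ndufa11, also of the membrane arm, went the other way: 52.4 and 49.9 CPM in MEF_fl were followed by 39.2 and 35.8 CPM on day 4. Ndufa11 fell by 0.45 on the log2 scale (SE 0.08, adjusted p = 0.00168), with no overlap between the groups. Ndufa1 (-0.60 ± 0.18) and Ndufa3 (-0.45 ± 0.16), further accessory subunits of that arm, fell too. Ndufs4, an accessory subunit of the NADH module whose loss in patients impairs complex I, was at 47.0 and 48.5 CPM in MEF_fl and at 53.4 and 44.7 CPM on day 4. The Ndufs4 groups overlapped and its change of 0.04 ± 0.14 was not called (adjusted p = 0.834), and it was -0.03 on the TPM scale.

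Complex II is the only complex of the chain made of nuclear subunits alone. Sdhd, a membrane anchor, was at 87.9 and 87.0 CPM in MEF_fl and at 111 and 108 CPM on day 4, and rose by 0.33 ± 0.09 (adjusted p = 0.0137). The other anchor, Sdhc, had 0.34 ± 0.13 (adjusted p = 0.0504) and rose in the paired fit (adjusted p = 6.15e-05). The flavoprotein Sdha (0.10 ± 0.10) and the iron-sulfur subunit Sdhb (0.16 ± 0.11) were called in neither fit. Complex II thus had 1 call among 4 genes, and 2 with pairing. Without pairing, that share was close to the 25.7% of all genes called higher.

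In complex III, 4 of 8 members rose and none was called lower. Uqcrh, the hinge subunit near cytochrome c, was at 97.2 and 89.6 CPM in MEF_fl and at 179 and 166 CPM on day 4, a rise of 0.89 ± 0.11 (adjusted p = 9.88e-05). The Rieske iron-sulfur protein gene Uqcrfs1 rose by 0.56 ± 0.07, and the core protein genes Uqcrc2 and Uqcrc1 by 0.49 ± 0.09 and 0.26 ± 0.08. The small subunits Uqcrq (-0.18 ± 0.11) and Uqcr10 (-0.12 ± 0.08) were not called.

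Of the 14 tested complex IV genes, 6 were called higher and 1 lower (8 and 2 with pairing). Cox6b2, an isoform known from testis, rose most of all members called in fl cells, from 8.65 and 11.7 CPM in MEF_fl to 39.0 and 43.6 CPM in Day4_fl_DMSO (2.02 ± 0.18, adjusted p = 1.58e-05). Its widely expressed counterpart Cox6b1 was at 111 and 123 CPM and then at 130 and 125 CPM, and was not called (0.12 ± 0.09). The main isoform Cox4i1 rose by 0.47 ± 0.10, and Cox7a2l, which helps join complexes into supercomplexes, by 0.46 ± 0.09. Cox7b rose by 0.44 ± 0.11, Cox8a by 0.51 ± 0.18 and Cox5a by 0.24 ± 0.08. Cox4i2 fell by 1.63 on the log2 scale (SE 0.57, adjusted p = 0.0345), from only 11 and 11 counts to 6 and 2. Cox4i2 was not called by DESeq2 (adjusted p = 0.0916), and its log2 fold change was -2.75 without Day4_fl_DMSO replicate 1 and -0.90 without Day4_fl_DMSO replicate 2.

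Changes of the ATP synthase genes in fl cells were positive for 15 of 15 (14 on the TPM scale), and 7 rose. Atp5g2, 1 of 3 genes for the c subunit of the rotor, was at 122 and 132 CPM in MEF_fl and at 249 and 232 CPM on day 4 (0.92 ± 0.09, adjusted p = 2.26e-05). Of the other c subunit genes, Atp5g3 rose by 0.48 ± 0.16 and Atp5g1 (0.18 ± 0.11) was called in the paired fit alone (adjusted p = 0.0359). In the catalytic head the alpha subunit gene Atp5a1 rose by 0.54 ± 0.10, the gamma gene Atp5c1 by 0.59 ± 0.09, the delta gene Atp5d by 0.53 ± 0.08 and the beta gene Atp5b by 0.29 ± 0.09.

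**Figure D2:**
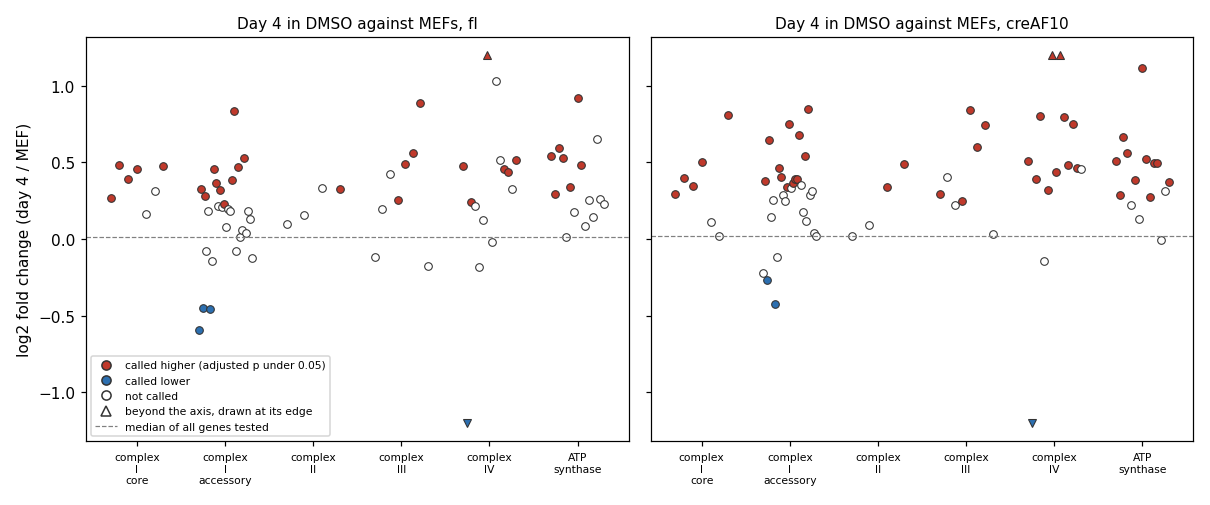
Log2 fold change of each tested subunit gene between MEFs and day 4 in DMSO, by complex, in fl (left) and creAF10 cells (right); each point is a gene, filled where adjusted p is under 0.05 (red higher, blue lower). Most points lie above the dashed median of all genes, with Ndufa1, Ndufa3 and Ndufa11 among those below it in fl cells, and Cox6b2, Cox7a1 and Cox4i2 beyond the axis are drawn at its edge; the Ndufa4 pair is not drawn.

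Genes around the chain were read against the same background of 25.7% of all genes higher and 26.3% lower. Of 30 assembly factors in the tables, 7 rose, a share near that background, and 3 fell (median 0.12). Acad9, which assembles complex I, rose by 0.91 ± 0.09, and the complex IV factors Cox18 and Cox11 fell (-0.80 ± 0.14 and -0.65 ± 0.14). Of 15 tested carriers and partners, 6 rose and 0 were called lower, among them the outer membrane channel Vdac1 (0.71 ± 0.08) and the ADP/ATP carrier Slc25a5 (0.79 ± 0.09). The electron carrier cytochrome c, encoded by Cycs, was not called (-0.20 ± 0.11, adjusted p = 0.149) except in the paired fit (adjusted p = 0.0352).

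Of 19 genes of the TCA cycle and pyruvate dehydrogenase, 7 rose, such as Suclg2 (0.63 ± 0.08), and 2 fell, Ogdh (-0.31 ± 0.09) and Pdhx (-0.32 ± 0.11). Of 76 mitochondrial ribosomal protein genes, 35 rose and 1 fell (3 in the paired fit), with a median of 0.33, and of 20 tested import genes 9 rose. Among 21 regulators, 9 rose and 1 fell (4 in the paired fit). Those that rose include Tfam (0.51 ± 0.11), which packages mitochondrial DNA, and the helicase gene Peo1 (0.99 ± 0.10). The coactivator gene Ppargc1a was at 4.03 and 6.92 CPM in MEF_fl and at 0.92 and 1.19 CPM on day 4, and fell by 2.36 on the log2 scale (SE 0.38). Transcripts of the regulators Nrf1 (0.02 ± 0.09, and -0.04 on the TPM scale), Gabpa (-0.03 ± 0.09) and Esrra (0.07 ± 0.15) were not called.

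Markers of other cells and of growth also moved. The 7 proliferation markers all rose, and their sum went from 548 to 567 CPM in MEF_fl to 1160 to 1192 CPM in Day4_fl_DMSO. Of 8 macrophage and blood markers, 4 of the 7 tested rose, and the sum of the 8 went from 5.51 to 10.6 CPM to 62.2 to 72.2 CPM, most of it Laptm5. Ptprc and Tyrobp had 15 counts or fewer in each of these libraries. Csf1r did not rise, with 28 and 20 counts in MEF_fl and 21 and 23 in Day4_fl_DMSO. Of the 12 muscle markers, 3 of 7 tested fell (5 in the paired fit), and the sum went from 9.90 to 18.3 CPM to 2.69 to 2.82 CPM. Tnnt1 did not fall, with 5 and 6 counts in MEF_fl and 15 and 8 in Day4_fl_DMSO. Myod1 and Myh6 had 0 or 1 counts in the MEF_fl libraries and 0 on day 4, too few to show a change. Bulk RNA cannot tell fewer cells of a type from less RNA per cell. The part of these cells and of growth in the members' changes was not tested.

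The isoform pairs of complex IV changed their balance at very different levels. Cox6b2 made up 6.99% and 8.21% of the summed TPM of Cox6b1 and Cox6b2 in MEF_fl and 23.5% and 25.1% in Day4_fl_DMSO, and all 8 day 4 libraries (23.5% to 27%) were above all 4 MEF libraries. Cox4i2, a variant of Cox4i1 known from lung, never passed 0.454% of its pair, with 2 to 23 counts a library. Cox7a1, the heart and muscle counterpart of Cox7a2, had 8 and 4 counts in MEF_fl, 1 and 2 in MEF_creAF10, and 7 to 38 on day 4. Cox6a2, the muscle form of Cox6a1, had 9 and 1 counts in MEF_fl, 11 and 2 in MEF_creAF10, and 0 in both libraries of either day 4 DMSO group. Against a floor of 3 counts over a group of 2 libraries, the MEF counts of Cox6a2 were 3.5-fold higher in fl and 3.54-fold higher in creAF10 cells. These ratios leave out the error of the MEF counts, most of which came from replicate 1. Cox6a2 reached the TPM threshold in the MEF groups alone, so a lower level on day 4 follows from how it was chosen.

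**Figure D3:**
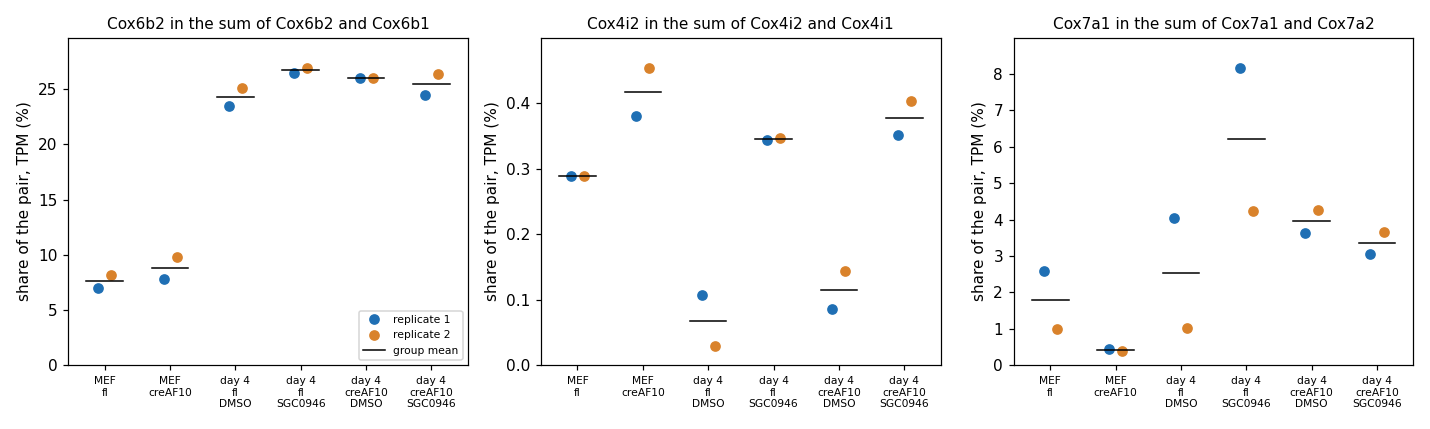
Share of the minor isoform in the summed TPM of its pair (%) for Cox6b2 with Cox6b1, Cox4i2 with Cox4i1 and Cox7a1 with Cox7a2; points are libraries and horizontal lines are group means. Cox6b2 holds 6.99% to 9.77% in MEFs and 23.5% to 27% on day 4, while Cox4i2 and Cox7a1 stay low and rest on 38 counts or fewer.

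In creAF10 cells, where 55% of all genes were called in either direction, the same comparison gave 47 members higher (58%, against 27.5% of all genes) and 3 lower (3.7%, against 27.5%), with a median of 0.37 and 72 of 81 positive. The paired fit raised this to 55 higher (against 35.6% of all genes) and 3 lower (against 34.8%). The TPM scale gave 29 higher and 5 lower, where it called 2902 and 4679 of all 13936 genes. Leaving out any 1 of the 4 libraries left 0 or 1 member called lower and 33 to 40 called higher. Complex IV had 11 of 14 genes higher, the ATP synthase 11 of 15, complex III 5 of 8, the complex I core 5 of 7, its accessory subunits 12 of 28, with 2 lower, and complex II 2 of 4.

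Atp5g2 was at 111 and 126 CPM in MEF_creAF10 and at 268 and 247 CPM in Day4_creAF10_DMSO, and rose by 1.12 ± 0.09 (adjusted p = 6.75e-06). Uqcrc2 rose by 0.84 ± 0.09 and Ndufv2 by 0.81 ± 0.09, in each case with no overlap between the groups. Ndufb11, a membrane arm subunit, was at 65.2 and 70.3 CPM and then at 113 and 114 CPM (0.75 ± 0.08). The accessory subunit gene Ndufc2 rose by 0.85 ± 0.12, Cox6b2 by 2.12 ± 0.17 and Sdhd by 0.49 ± 0.09. Cox7a1 had 3 counts over both MEF libraries and 45 over both day 4 libraries, an 18.3-fold ratio of its share of the totals with an exact 95% counting interval of 5.89 to 92.3. Ndufs4 had 0.29 ± 0.14 and was called in the paired fit alone (adjusted p = 0.00317).

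Setting the genotypes side by side, 31 members rose in both, 3 fell in both (Ndufa11, Ndufa3 and Cox4i2) and 0 were called in opposite directions. Of the members, 38.3% rose in both and 3.7% fell in both, where 22.4% and 23.3% of all genes did. A further 16 (19.8%, against 5.11% of all genes) were called higher in creAF10 alone and 4 (4.94%, against 3.36%) in fl alone, and 26 (32.1%, against 38.7%) were called in neither. The difference of the genotypes in this change was tested as an interaction of deletion and stage, which called 0 members in edgeR and 0 in DESeq2. In edgeR, 8 of 81 members had an unadjusted p under 0.05, against 507 of all 13936 genes. The paired fit called 1 member, Ndufb11 (0.52 ± 0.10, adjusted p = 0.00556), where 1.16% of all genes were called.

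**Figure D4:**
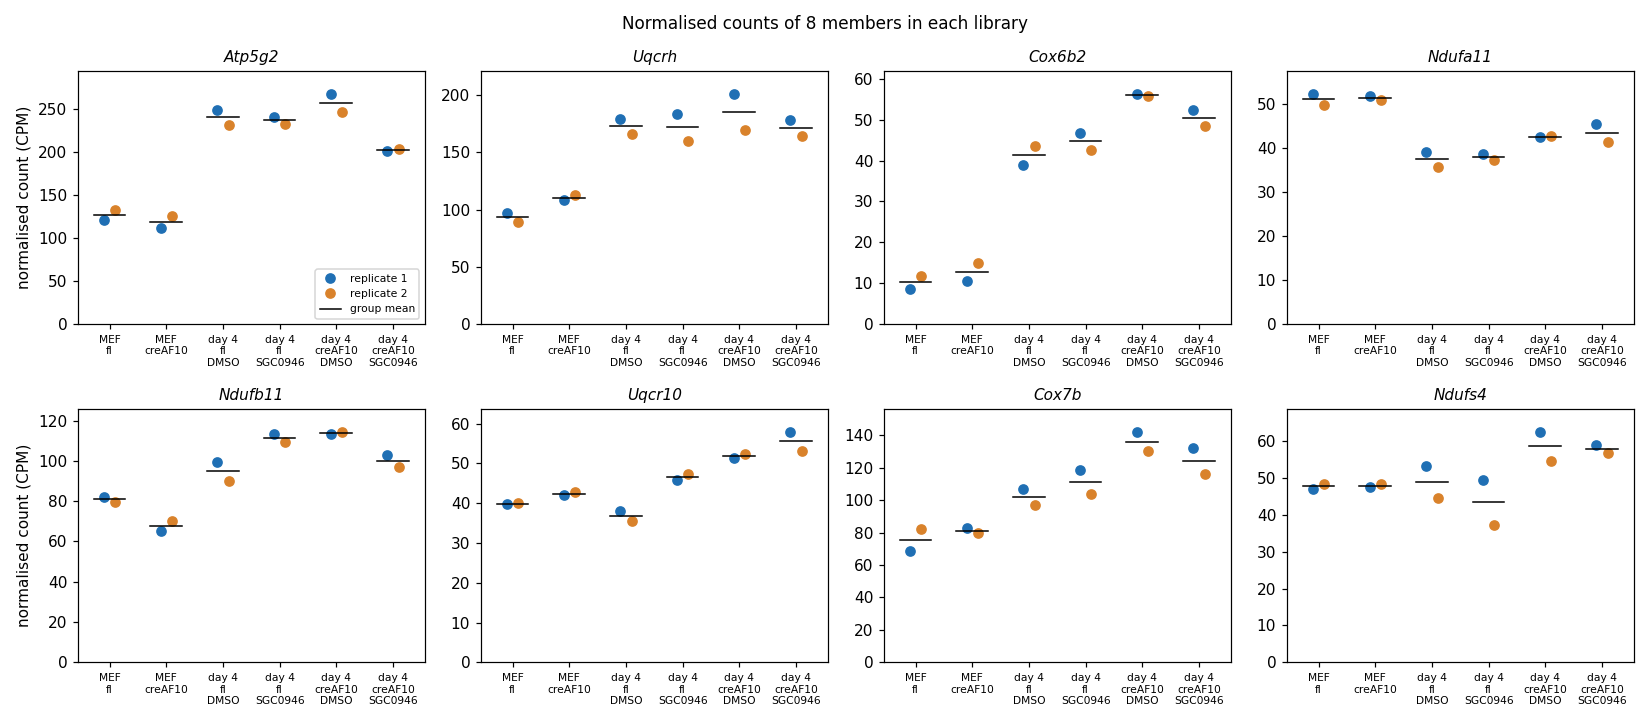
Normalised counts (CPM, linear axis from 0) of 8 members in each of the 12 libraries; points are libraries coloured by replicate number and horizontal lines are group means. Atp5g2, Uqcrh and Cox6b2 are higher in every day 4 library than in every MEF library and Ndufa11 is lower, while Uqcr10 is highest in the creAF10 libraries of day 4 and Ndufs4 overlaps between MEF_fl and Day4_fl_DMSO.

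AF10 deletion in MEFs moved no member past the threshold. edgeR called 0 of 81 (0% of all genes), and 3 had an unadjusted p under 0.05 (300 of all 13936 genes). DESeq2 and the paired fit called 0 members as well, where the paired fit called 0.962% of all genes. The median log2 fold change was 0.03. Both creAF10 libraries were above both fl libraries for 11 members (13.6%) and below for 11 (13.6%), against 9.77% and 10.8% of all genes.

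AF10 deletion on day 4 in DMSO gave calls of members in the paired fit and, for 1 gene, in DESeq2. edgeR called 0 members (0% of all genes), with 12 at an unadjusted p under 0.05 (988 of all 13936 genes). DESeq2 called 1 member, Uqcr10. With pairing, 10 were called higher and 0 lower (12.3% of members, against 6.74% of all genes in either direction and 3.37% in each). The median was 0.14 with 68 of 81 positive, beside 0.00 for all genes. A similar shift was seen in the 76 mitochondrial ribosomal protein genes (median 0.12, 72 positive, 1 called higher in the paired fit). It was smaller in the 20 tested import genes (0.03, 12 positive). On the TPM scale the members' median was 0.08 with 53 positive, and that of all genes was -0.06. Both creAF10 libraries were above both fl libraries for 39 members (48.1%) and below for 1 (1.2%), where 20.1% and 20.3% of all genes were so. These counts share their Day4_fl_DMSO libraries with the comparison of SGC0946 in fl cells and their Day4_creAF10_DMSO libraries with that of day 4 and MEFs.

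Uqcr10, a small subunit of complex III, was at 38.1 and 35.4 CPM in Day4_fl_DMSO and at 51.4 and 52.4 CPM in Day4_creAF10_DMSO. Uqcr10 had 0.50 ± 0.08 (adjusted p = 0.526 in edgeR, 0.000325 in the paired fit and 0.0108 in DESeq2). In complex IV, 14 of 14 tested genes were positive (11 on the TPM scale), with a median of 0.30, and 5 rose in the paired fit: Cox7b, Cox6b2, Cox6b1, Cox6c and Cox7c. Cox7b was at 107 and 97.1 CPM in fl and at 142 and 130 CPM in creAF10 (0.42 ± 0.11, adjusted p = 0.591 and 0.000603 in the paired fit). Cox6b2 was at 39.0 and 43.6 CPM and at 56.3 and 55.7 CPM (0.44 ± 0.16, 0.673 and 0.00201).

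The remaining paired calls were Ndufv2, Ndufb11 and Ndufb4 of complex I and Atp5j2, the f subunit of the ATP synthase. Ndufv2 was at 87.4 and 80.2 CPM in fl and at 106 and 105 CPM in creAF10 (0.33 ± 0.09, paired adjusted p = 0.00433). Atp5j2 was at 64.5 and 60.3 CPM and at 87.2 and 73.7 CPM (0.37 ± 0.13, paired adjusted p = 0.00698). The complex I core had a median of 0.00 (-0.06 on the TPM scale) and the ATP synthase of 0.07 (0.01). Fibroblast markers summed to 11850 to 11947 CPM in these creAF10 libraries, below the fl range given above, and proliferation markers to 1076 to 1090 CPM. Their part was not tested.

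SGC0946 in fl cells gave few calls of members. edgeR called 0 (against 0.883% of all genes higher and 0.23% lower, 1.11% in all), and DESeq2 called 0. In edgeR, 8 members had an unadjusted p under 0.05, against 1856 of all 13936 genes. With pairing, 7 were called higher and 1 lower (8.64% and 1.23% of members, against 10.6% and 7.1% of all genes), so the share of members called was near or under the background. The median was 0.08 with 57 of 81 positive, beside -0.01 for all genes. Both SGC0946 libraries were above both DMSO libraries for 28 members (34.6%) and below for 4 (4.94%), where 23.4% and 24.2% of all genes were so. Of complex III, 3 of 8 genes rose in the paired fit. Uqcrq, a small subunit, was at 37.6 and 38.7 CPM in DMSO and at 50.4 and 52.1 CPM in SGC0946 (0.43 ± 0.11, adjusted p = 0.12 and 0.001 in the paired fit). Uqcr10 was at 45.9 and 47.4 CPM in SGC0946 (0.34 ± 0.08, 0.0839 and 0.00284) and Uqcrfs1 had 0.21 ± 0.07.

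Cox4i2 had 6 and 2 counts in DMSO and 18 and 19 in SGC0946, or 0.34 and 0.09 CPM against 1.18 and 1.25 CPM (2.51 ± 0.54, adjusted p = 0.063 and 0.000821 in the paired fit), and the change ranged from 1.79 without Day4_fl_DMSO replicate 2 to 3.62 without replicate 1 of that group. Cox7a1 had 21 and 7 counts and then 38 and 25 (1.47 ± 0.54, 0.273 and 0.0081). Its change was 2.66 without Day4_fl_DMSO replicate 1 and 0.76 without Day4_fl_DMSO replicate 2. Both genes rest on few reads. Ndufb11 (0.23 ± 0.07) and Ndufb2 (0.40 ± 0.18) of complex I were also called higher in the paired fit and Cox5a lower (-0.23 ± 0.08, paired adjusted p = 0.0267). The adipocyte marker Fabp4 rose in the same comparison (1.41 ± 0.25, adjusted p = 0.0349 in edgeR), while Adipoq had 0 or 1 counts in these 4 libraries. The part of such cells was not tested.

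In creAF10 cells edgeR called 0 members with SGC0946 (0.00718% of all genes), and 6 had an unadjusted p under 0.05 (955 of all 13936 genes). DESeq2 called 0 members. The median was -0.03, beside 0.00 for all genes, and on the TPM scale it was 0.01 beside 0.04 for all genes. With pairing, 1 was called higher and 2 lower, against 5.28% and 2.47% of all genes (7.75% in either direction). Cox4i2 had 4 and 9 counts in DMSO and 22 and 18 in SGC0946 (1.57 ± 0.50, paired adjusted p = 0.0366). Atp5g2 was at 268 and 247 CPM in DMSO and at 202 and 204 CPM in SGC0946, with no overlap (-0.34 ± 0.09, adjusted p = 0.344 and 0.00107 in the paired fit). Atp5j2 was at 66.0 and 58.0 CPM in SGC0946 (-0.37 ± 0.13, paired adjusted p = 0.00408), close to the 64.5 and 60.3 CPM of Day4_fl_DMSO.

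Within SGC0946, AF10 deletion gave 0 calls in edgeR (0% of all genes), 7 members at an unadjusted p under 0.05 and 0 calls in DESeq2, with a median of 0.01. The paired fit called 1 member higher, Ndufs4, where 0.0718% of all genes were called higher and 0.1% lower. Ndufs4 was at 49.6 and 37.2 CPM in Day4_fl_SGC and at 58.9 and 56.9 CPM in Day4_creAF10_SGC (0.42 ± 0.14, paired adjusted p = 0.023), with no overlap and with most of the difference between the replicate 2 libraries (0.25 in replicate 1 and 0.61 in replicate 2). The fl library of replicate 2 was the lowest of the 12 for Ndufs4.

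Whether the drug and the deletion added up was tested as their interaction on day 4. edgeR called 0 members (0% of all genes), 5 had an unadjusted p under 0.05 (303 of all 13936 genes), and DESeq2 called 0. The median of the interaction was -0.09 with 14 of 81 members positive, beside 0.00 for all genes. The TPM scale gave -0.03 with 31 positive, beside 0.07 for all genes. The paired fit called 1 member, Ndufb11 (-0.42 ± 0.10, adjusted p = 0.045), where 0.0718% of all genes were called higher and 0.323% lower. Ndufb11 was at 99.5 and 90.2 CPM in Day4_fl_DMSO, at 114 and 109.6 CPM in Day4_fl_SGC, at 113 and 114 CPM in Day4_creAF10_DMSO and at 103 and 97.0 CPM in Day4_creAF10_SGC. Its level was thus higher with either the deletion or the drug than with neither, and with both it overlapped the level with neither.

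**Figure D5:**
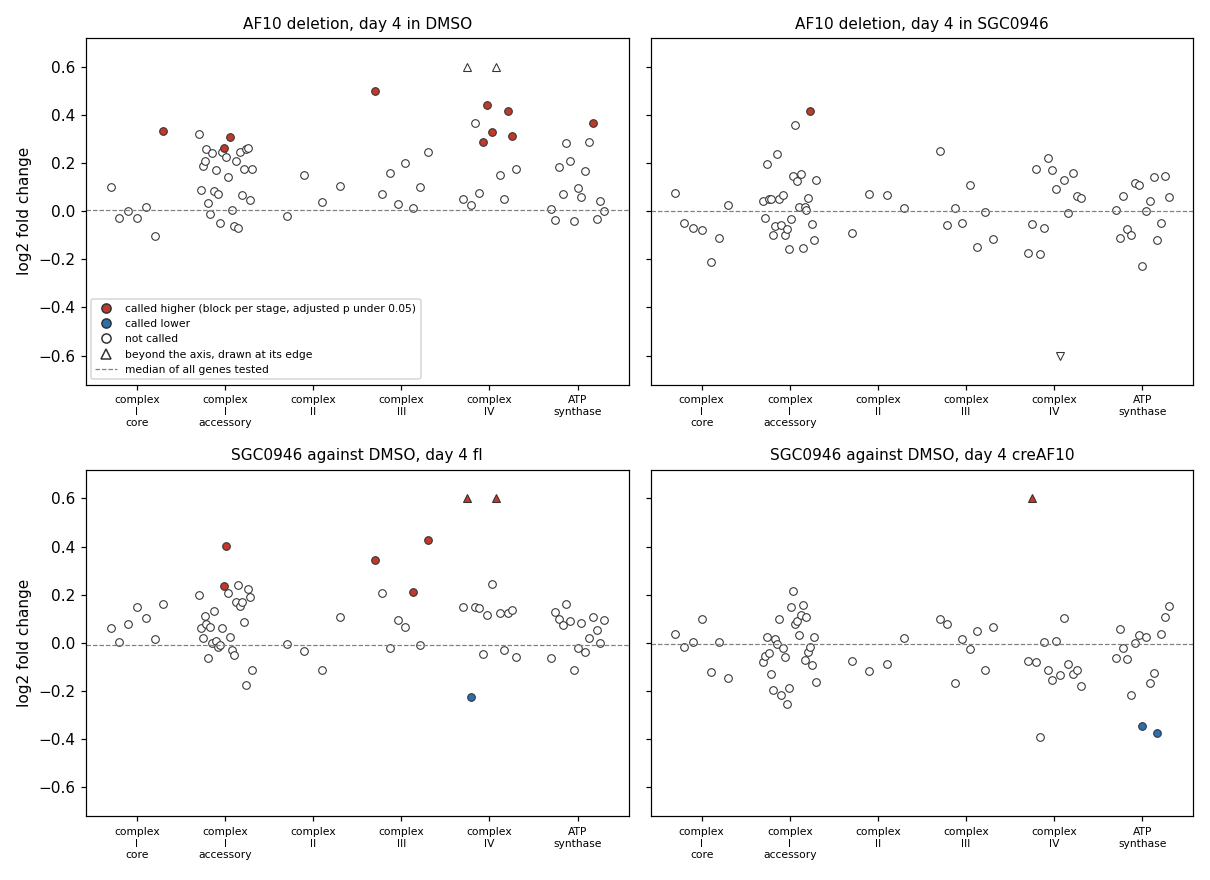
Log2 fold change of each tested subunit gene for AF10 deletion (top, in DMSO and in SGC0946) and for SGC0946 against DMSO (bottom, in fl and in creAF10 cells) on day 4; each point is a gene, filled where the paired fit gives an adjusted p under 0.05. The 10 filled points of the deletion in DMSO are all above the dashed median of all genes and 5 of them are complex IV genes, and Cox4i2 and Cox7a1 beyond the axis are drawn at its edge.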

How the data were processed

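The labels' protocols give TruSeq libraries of polyadenylated RNA, of which 12 were sequenced. The submitters' processing notes name Bowtie, RSEM and the mouse build mm9; versions are not given in the sources used here. The deposited tables hold RSEM expected counts, which the authors did not normalise, and TPM values per transcript length, per the file headers. The deposited effective length equalled the length in 100% of entries, so the deposited TPM is not corrected for fragment size. RSEM shares reads between near-identical copies, and many subunit genes have processed pseudogenes, so their values are uncertain to that extent. The kit does not mark strand. In 10 of the 12 files, 25 gene names had turned into dates, so genes were matched through transcript identifiers.

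Expected counts were rounded, filtered with filterByExpr (13936 genes kept), scaled by TMM and fitted in edgeR 4.0.16 (R 4.3.3) with 1 term per group over all 12 libraries, by the robust quasi-likelihood F test and with Benjamini-Hochberg adjustment over all genes kept. Each SE is the log2 fold change over the root of its F statistic. Alternatives were DESeq2 1.42.0, its size factors, no filter, only the groups compared, replicate blocks and leaving out each library. Library totals and the TPM scale were added after seeing the data. The fits were also run on simulated data with no replicate difference and with less spread than the fit without pairing found. Such data cannot show how the replicate blocks behave here.

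Replicate numbers were taken as pairs because the differences between replicate 2 and replicate 1 correlated in each of the 15 pairs of groups (r across genes 0.286 to 0.737) and the Y-linked counts split by number; the biological coefficient of variation was 0.148, and 0.0549 with the block per stage. The members and lists were chosen with earlier results of these data known. Named were, per comparison, up to 10 called members a direction by p (up to 5 from the paired fit where fewer than 3 were called), Ndufs4, the Sdh genes, isoform pairs, extremes and up to 4 called genes per list. Other members named here to complete a complex or a count (5 or fewer), such as Cox7b and Ndufs7, and the regulators not called, were chosen after their values were seen. The values of 1 member are not reported here.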

Additional observations from a re-analysis of the deposited data

Results flagged for a closer look

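Ndufb11, a membrane arm subunit of complex I, was singled out because its response differed between groups by a test of the difference itself. In the fit with a replicate block per stage, the change with SGC0946 on day 4 was lower in creAF10 than in fl cells by -0.42 (SE 0.10, edgeR adjusted p = 0.045). The rise from MEFs to day 4 was larger in creAF10 than in fl cells by 0.52 (SE 0.10, edgeR adjusted p = 0.00556). Both tests use the Day4_fl_DMSO and Day4_creAF10_DMSO libraries. Without the block neither was called (adjusted p = 1 and 0.963).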

How the results depend on the processing

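Of the 44 changes of named members recomputed under each alternative, 0 turned direction. The 44 were chosen as calls with the lowest p, from edgeR without pairing or from the paired fit, which makes a stable direction likely in advance. Ndufs4 on day 4 in fl cells, which was not called and not among them, turned on the TPM scale (0.04 and -0.03). Library totals gave 1 member lower on day 4 in fl and 0 in creAF10 cells. The TPM scale gave 29 higher and 5 lower in creAF10 cells, where it called 2902 and 4679 of all 13936 genes. In fl cells it gave 27 and 6, against 3076 and 4028 of all genes. Fitting only the groups compared gave 0 lower in creAF10 cells. With a library left out, day 4 had 21 to 32 members higher and 1 to 3 lower in fl cells (21 higher without Day4_fl_DMSO replicate 1, 2 lower without MEF_fl replicate 1 and 1 lower without Day4_fl_DMSO replicate 2), and 33 to 40 higher and 0 to 1 lower in creAF10 cells. All members called by deletion or drug came from the pairing: the replicate block per stage gave 10 higher for the deletion in DMSO, 7 higher and 1 lower for SGC0946 in fl cells, 1 higher and 2 lower for it in creAF10 cells, 1 higher for the deletion in SGC0946, and 1 in each interaction; 1 block for both stages gave 3 higher for SGC0946 in fl cells. The exception is DESeq2, which called 1 member higher for the deletion in DMSO. The cause of these differences was not tested. Among counts over all members, the replicate block moved no other by over 1.5 times. Of the 44, DESeq2 left 41 on the same side of the threshold and library totals 38. Few counts limit Cox4i2, Cox7a1, Cox6a2 and Ndufa4l2.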

Other observations

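Ndufv3, an accessory subunit of the NADH module with a short and a long transcript form, was at 63.5 and 84.6 CPM in MEF_fl and at 69.3 and 66.8 CPM in Day4_fl_DMSO, and was not called (-0.12 ± 0.16, edgeR adjusted p = 0.545). That test used counts, which are not per transcript length. In TPM, Ndufv3 was lower in all 8 day 4 libraries (148 to 196 TPM) than in all 4 MEF libraries (205 to 308 TPM). This difference in TPM was not tested. Its mean transcript length as RSEM weighted it was 672 to 714 bases in the 4 MEF libraries and 811 to 907 bases in the 8 day 4 libraries, with no overlap. Cox6b2 also varied, from 476 to 536 bases, with overlapping stages.

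Ucp2, which encodes a mitochondrial inner membrane carrier, had more reads with SGC0946 than in DMSO in both genotypes in the paired fit (1.41 in fl cells, adjusted p = 2.55e-08, and 0.75 in creAF10 cells, adjusted p = 0.000433), and with deletion in DMSO (0.63, adjusted p = 0.00965). Without pairing edgeR called none of these (adjusted p = 0.112, 0.746 and 0.768), and DESeq2 called the first (adjusted p = 0.0114). Ucp2 was named after its values were seen.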
